A study of Mus musculus with 21 samples.

Results

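The fibulin family was followed at the RNA level in C3H/10T1/2 cells that carried different forms of histone H2B. The members were the genes whose symbol in the deposited table was Efemp1, Efemp2, Fbln1, Fbln2, Fbln5 or Fbln7, and all 6 were found among its 24091 genes. C3H/10T1/2 is a mouse line of mesenchymal progenitor cells derived from embryo, and every group was grown in the same serum-containing medium. One group carried wild-type H2B (WT). In the 6 mutant groups a glutamate of H2B was replaced by lysine, which reverses its charge, or by glutamine, which removes it, at residue E71 (E71K, E71Q), E76 (E76K, E76Q) or E113 (E113K, E113Q). Each of the 7 groups had 3 libraries, 21 in all, which the submitters call independent biological replicates. How the histone was delivered, which promoter drove it and whether a genotype was 1 line or several are not given in the sources used here, so differences between lines and the effects of a substitution cannot be told apart. Abundance is given in TPM, a transcript abundance scaled by gene length and by the library total. Because these are bulk samples, fewer cells of a type and less RNA per cell cannot be told apart.

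Fibulins are secreted glycoproteins of the extracellular matrix, built of repeated calcium-binding EGF-like modules followed by a fibulin-type module at the carboxyl end. Fibulin-4 (Efemp2) and fibulin-5 (Fbln5) are needed to assemble elastic fibres, which they do by bringing tropoelastin, lysyl oxidases and fibrillin microfibrils together. Fibulin-3 (Efemp1) is a close relative that binds the protease inhibitor TIMP-3 and is abundant in fascia and in the eye, whereas the longer fibulin-1 and fibulin-2 bind fibronectin, nidogen, laminins and the proteoglycan versican. Fibulin-7 (Fbln7) is a short member known from tooth and cartilage.

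The most different patterns in the family were those of Efemp1, which was lower in every mutant, and Fbln5, which was higher in every mutant. The 250 bases before the RefSeq start sites of this pair are shown because their transcripts moved in opposite directions in the same libraries. They come from GRCm38.p6, the assembly of mm10, are written 5′ to 3′ on the strand of the gene, and carry their CpG dinucleotides in capitals. Efemp1 lies on the plus strand (chr11:28852955-28853204) and Fbln5 on the minus strand (chr12:101819120-101819369).
Efemp1: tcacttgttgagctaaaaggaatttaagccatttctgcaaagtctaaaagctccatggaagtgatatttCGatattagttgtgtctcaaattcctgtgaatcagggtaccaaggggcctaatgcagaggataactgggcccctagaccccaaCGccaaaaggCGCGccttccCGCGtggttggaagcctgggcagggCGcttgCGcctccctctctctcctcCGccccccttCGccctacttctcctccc
Fbln5: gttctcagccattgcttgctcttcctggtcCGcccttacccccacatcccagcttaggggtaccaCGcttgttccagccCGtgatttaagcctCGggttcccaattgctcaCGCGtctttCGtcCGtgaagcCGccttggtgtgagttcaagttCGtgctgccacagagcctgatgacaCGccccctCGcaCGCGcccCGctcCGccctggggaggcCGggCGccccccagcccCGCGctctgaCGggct
The Efemp1 window held 10 CpG and was 53.6% G or C, and the Fbln5 window held 21 CpG and was 65.2% G or C, against a median of 6 CpG and 52.4% over 32536 such windows of mouse genes. A second RefSeq start of Fbln5 had a window with 6 CpG. The letters TGANTCA, with any base at N, are a looser pattern than the AP-1 site, which has C or G there. Searched on both strands, they occurred in the Efemp1 window, as tgaatca, and in neither window of Fbln5. Of all windows 6.73% held the loose pattern, and the stricter AP-1 site was not counted. TATAAA occurred in none of the windows of the 6 genes and in 12.3% of all windows. GGGCGG, the core of a GC box, occurred once in the Efemp1 window, in 2 places in the first Fbln5 window and in 32.97% of all windows. Such matches describe letters and not binding.

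Libraries of a group resembled each other, and 20 of the 21 had their best match within their own group. In E71K, E71Q, E76K and E113Q, however, 1 library lay apart from its mates along the main axis of differences within groups. It was replicate 1 in E71Q and replicate 3 in the others. The share of TPM taken by the locus Mir6236 ran from 2.19% to 30.6%, highest in E71K replicate 2, and a large share lowers every other TPM in that library. All 9 mesenchymal markers checked averaged at least 1 TPM in WT, E76K, E113K and E113Q and 8 of 9 did in E71K, E71Q and E76Q. Vim was at 2986 TPM or more in every library and Prrx1 at 100.9 TPM or more. Of the markers of other cell types, Epcam, Ptprc, Adgre1 and Kdr never passed 0.221 TPM, but others were present in some groups. The summed level of 7 chondrocyte markers was 42.6 to 44.8 TPM in WT, 27.9 to 30.1 in E113K and 41.1 to 62.3 in E76K, but 103 to 860 TPM in the other 4 mutants. Only 1 of the 7 averaged at least 1 TPM in WT and in E113K, 3 in E76K and E76Q, 4 in E113Q and 5 in E71K and E71Q. Col2a1, Cnmd and Ucma reached 504, 310 and 178 TPM, while Acan never passed 0.0425 TPM and Matn1 never passed 2.10 TPM. The sum of 6 epithelial markers, of which Krt14 was the largest, reached 488 TPM in E71K and 365 TPM in E71Q beside at most 14.4 TPM in WT. The 4 leukocyte markers summed to 60.3 to 104 TPM in E76K, nearly all of it Lyz2, and to 14.9 to 17.8 TPM in WT. Their sum was 30.6 to 88.3 TPM in E71Q, 40.6 to 43.8 in E76Q and 12.6 to 36.7 in E71K. It was 4.36 to 6.75 TPM in E113Q and 0.93 to 1.57 in E113K. The 4 adipocyte markers summed to 32.2 to 72.1 TPM in E76K, most of it Fabp4, beside 1.36 to 1.85 TPM in WT and at most 9.82 TPM in the other mutants. The 5 smooth muscle markers, of which Acta2 was the largest, summed to 482 to 583 TPM in E76Q, 203 to 211 TPM in WT and 64.5 to 348 TPM elsewhere. The endothelial markers Cdh5 and Tek reached 1.94 and 1.57 TPM. The part of these markers in the fibulin values was not tested.

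**Figure D1:**
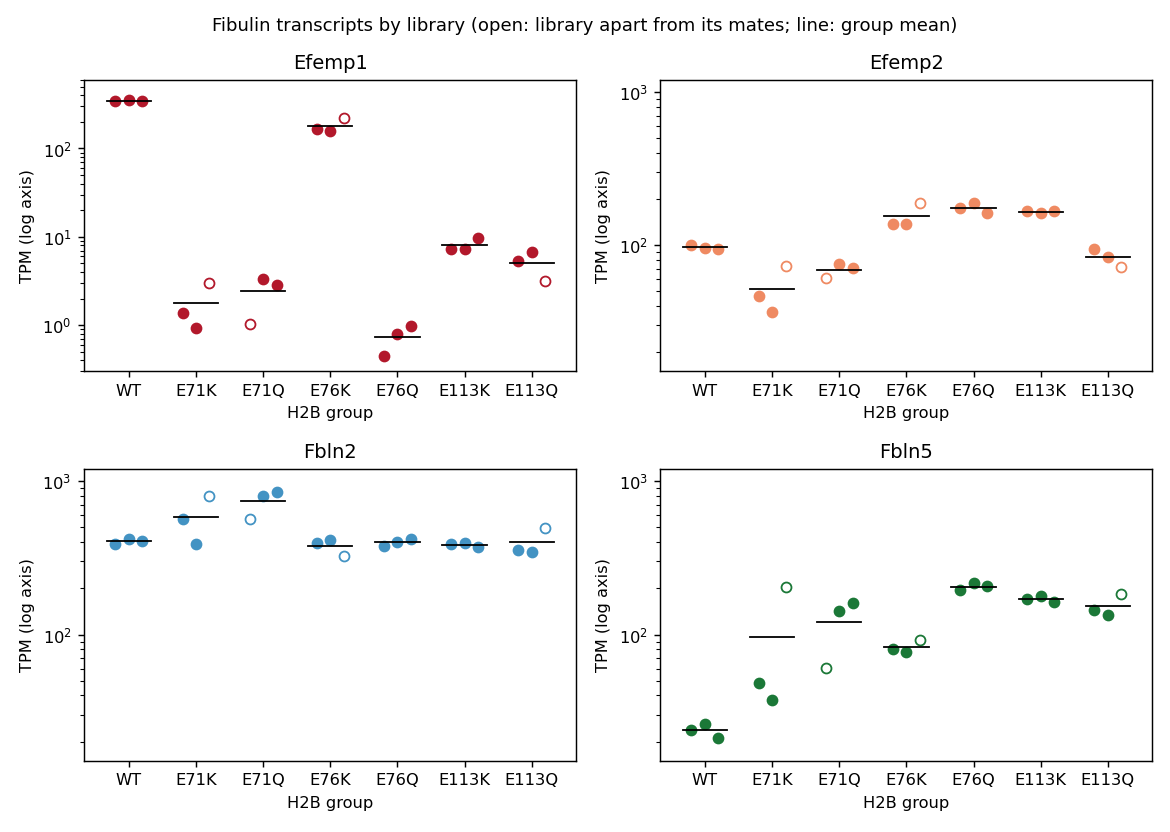
TPM (log axis) of the 4 expressed fibulins in each library of the 7 H2B groups, with the group mean as a line and open circles for the 4 libraries that lay apart from their mates. Efemp1 fell from 343 to 356 TPM in WT to under 10 TPM in 5 mutant groups but to 156 to 220 TPM in E76K, while all 18 mutant libraries had more Fbln5 than any WT library.

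Efemp1, which encodes fibulin-3, was nearly lost in 5 of the 6 mutants and about halved in the sixth. The gene (Entrez Gene 216616) lies on chromosome 11 from 28853204 to 28926743 on the plus strand in mm10, and its longest coding transcript has 11 exons. The WT libraries held 343.5, 356.1 and 343.5 TPM. E76K kept 164.4, 155.8 and 219.7 TPM, which is 51.8% of the WT mean. In E113K the 3 libraries held 7.38, 7.20 and 9.61 TPM. E113K was thus the next highest group, at 2.32% of WT, and none of its libraries came near those of E76K. E113Q had 5.39, 6.67 and 3.13 TPM, E71Q had 1.04, 3.33 and 2.88 TPM, and E71K had 1.37, 0.940 and 3.00 TPM. E76Q was lowest, with 0.449, 0.805 and 0.973 TPM, and the WT mean was 468 times its mean. All 18 mutant libraries were below all 3 WT libraries, and E76K did not overlap any other group.

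Fitted on log2(TPM + 1) with limma over all 21 libraries, Efemp1 fell in all 6 mutants. The log2 fold change was -7.66 ± 0.29 in E76Q (SE; adjusted p = 1.08e-12), -7.04 ± 0.29 in E71K (3.23e-12), -6.74 ± 0.29 in E71Q (4.81e-12), -5.89 ± 0.29 in E113Q (5.45e-11) and -5.28 ± 0.29 in E113K (1.81e-10). In E76K it was -0.96 ± 0.29 (limma adjusted p = 0.0163), and this call did not pass with a pseudocount of 0.1 (adjusted p = 0.0764) or without E76K replicate 1 or 2. The size of the larger falls depends on the pseudocount, since these groups are near 1 TPM: with 0.1 and 5 it was -8.74 and -5.94 in E76Q and -7.69 and -5.71 in E71K. Among 12192 tested genes, Efemp1 had the second lowest fold change in E76Q, the fourth lowest in E71K, the sixth in E113Q, the seventh in E71Q and the 13th in E113K, against rank 566 in E76K. The levels of WT and E76K differed, as did those of E76K and E113K (E113K minus E76K -4.31, limma adjusted p = 3.79e-09; 32.8% of genes were called between these groups). Those of E113Q and E71Q differed too (adjusted p = 0.0398; 23.4% of genes), although their libraries overlapped. The other neighbours in the order of levels did not pass by limma: E113K and E113Q (adjusted p = 0.121), whose libraries did not overlap, E71Q and E71K (0.472), and E71K and E76Q (0.125).

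Fbln5, whose product fibulin-5 binds tropoelastin and cell-surface integrins, rose in all 6 mutants. The gene (Entrez Gene 23876) spans 101746565 to 101819055 on the minus strand of chromosome 12 and also has 11 exons in its longest coding transcript. WT libraries held 23.8, 26.1 and 21.1 TPM. E76Q stood highest with 194.9, 215.7 and 206.0 TPM, 8.69 times the WT mean, followed by E113K with 170.2, 177.5 and 162.7 TPM. These 2 groups were as uniform as WT. E113Q had 143.9, 133.1 and 184.8 TPM and E76K had 80.4, 77.2 and 91.5 TPM. E71Q had 60.6, 142.6 and 159.4 TPM and E71K 48.6, 37.5 and 202.7 TPM. In E71K and E71Q the library that lay apart thus set much of the mean: E71K replicate 3 held 4.71 times the mean of its mates, and the mates of E71Q replicate 1 averaged 2.49 times its value. Part of this gap came with Mir6236, which took 30.6% of TPM in E71K replicate 2 and 21.2% in E71Q replicate 1. With Mir6236 removed, E71K replicate 3 had 207.5 TPM beside 50.6 and 54.0 TPM in its mates. E71Q replicate 1 then had 77.0 TPM beside 158.3 and 168.7 TPM.

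The log2 rise of Fbln5 was 3.07 ± 0.43 in E76Q (SE; limma adjusted p = 2.39e-05), 2.80 ± 0.43 in E113K (5.12e-05), 2.64 ± 0.43 in E113Q (0.000162), 2.19 ± 0.43 in E71Q (0.0006), 1.77 ± 0.43 in E76K (0.00469) and 1.57 ± 0.43 in E71K (0.0111). Without the 4 libraries that lay apart the rise was 0.83 in E71K (limma adjusted p = 4.45e-05) and 2.63 in E71Q (3.46e-10). Removing libraries because they lay apart narrows the spread, so these p-values can be too small. The E71K rise was in fact smaller there than in all libraries. A fit of the E71K and WT libraries alone gave a limma adjusted p of 0.188 in E71K. In the order of levels only the lowest step, from E76K to WT, passed the test between neighbours. Further apart in that order, E76Q and E113K passed as higher than E71K, with overlapping libraries (limma adjusted p = 0.0173 and 0.0267). E76Q also passed as higher than E76K (0.0294). The library that lay apart had the most Fbln5 of its group in E71K, E76K and E113Q and the least in E71Q. In E71K, E76K and E113Q that library also had less of the proliferation marker Mki67 (31.4, 27.0 and 13.0 TPM) than its mates (46.0 to 65.7, 41.4 to 50.1 and 45.7 to 48.9 TPM), while the 3 E71Q libraries had 16.2, 14.1 and 17.2 TPM. The part of this axis in the Fbln5 values was not tested.

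**Figure D2:**
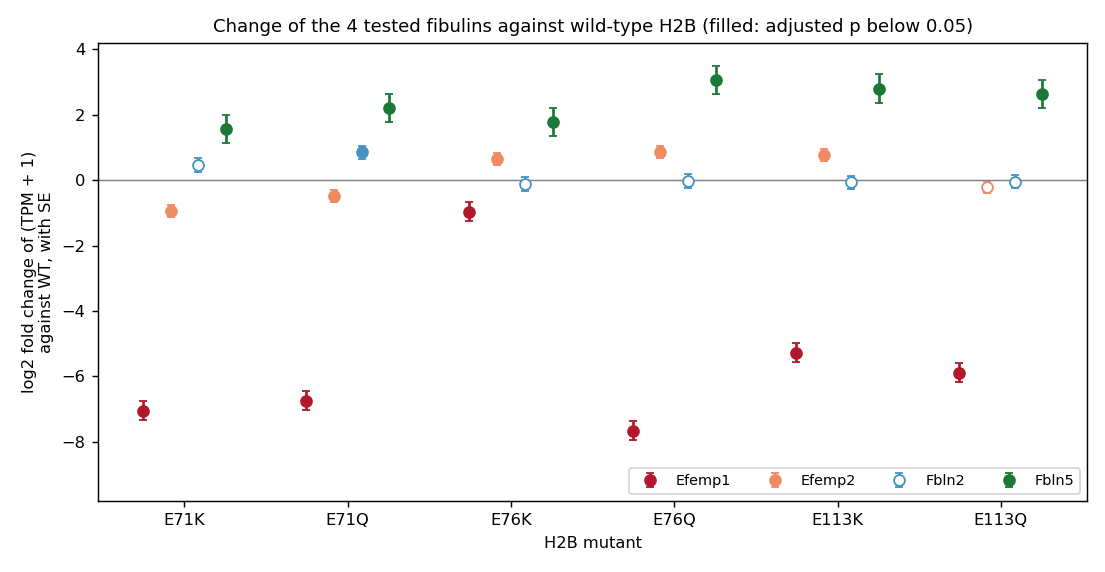
Log2 fold change of (TPM + 1) against WT with its SE for the 4 tested fibulins in each of the 6 mutants, filled where the adjusted p was below 0.05. Efemp1 lies below 0 and Fbln5 above 0 in every mutant, Efemp2 is above 0 in E76K, E76Q and E113K and below 0 in E71K and E71Q, and Fbln2 passed in E71Q alone.

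Efemp2, which encodes fibulin-4, the elastic fibre protein that carries lysyl oxidase to tropoelastin, rose in 3 mutants and fell in 2. The gene (Entrez Gene 58859) occupies 5473954 to 5482517 on the plus strand of chromosome 19, where its annotated span shares 173 bases with Mus81 on the opposite strand, and strand use in the counting is not given. WT libraries held 100.1, 95.4 and 94.5 TPM. E76Q had 174.5, 188.6 and 162.6 TPM, E113K had 167.1, 162.3 and 165.9 TPM, and E76K had 136.7, 138.3 and 187.5 TPM. These 9 libraries were all above WT. E113Q had 94.997, 83.8 and 72.2 TPM, E71Q 61.2, 75.5 and 70.6 TPM, and E71K 46.8, 36.4 and 72.9 TPM. Of these 9 libraries 8 were below WT, and 1 E113Q library lay within the WT range.

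Against WT, Efemp2 rose by 0.85 ± 0.19 in E76Q (SE; limma adjusted p = 0.00139), by 0.77 ± 0.19 in E113K (0.00248) and by 0.65 ± 0.19 in E76K (0.0122) on the log2 scale, and fell by 0.94 ± 0.19 in E71K (0.00088) and by 0.48 ± 0.19 in E71Q (0.0424). The E76K rise was 0.50 without E76K replicate 3, where it did not pass. The E71Q call was lost in 12 of the 21 fits that each left out 1 library, with changes of -0.55 to -0.40. The E71K call was lost in a fit of the 6 libraries alone (adjusted p = 0.0734). In E113Q the difference was -0.22 (95% confidence interval -0.61 to 0.18). Only the step from E76K to WT passed between neighbours in the order of levels (limma adjusted p = 0.0122). Further apart in that order, E76Q, E113K and E76K each passed as higher than E113Q, E71Q and E71K (limma adjusted p of 0.00272 or less).

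Fbln2, which encodes fibulin-2, a ligand of fibronectin and of basement membrane proteins, was the most abundant fibulin in every library, and it was near its WT level in 4 of the mutants. It (Entrez Gene 14115) lies on the plus strand of chromosome 6 from 91212455 to 91272540 with 18 exons in its longest coding transcript. WT held 387.3, 422.7 and 406.6 TPM. E71Q had 570.9, 798.9 and 855.0 TPM, and each of them was above every WT library. E71K had 565.0, 388.1 and 805.7 TPM, a range that included WT levels. In the remaining groups the 12 libraries lay between 322.8 and 497.7 TPM, both extremes being libraries that lay apart from their mates (E76K replicate 3 and E113Q replicate 3).

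Fbln2 rose by 0.85 ± 0.21 in E71Q (SE; limma adjusted p = 0.00325). In E71K the difference was 0.47 ± 0.21 (adjusted p = 0.109), but it was 0.73 and passed without E71K replicate 2, the library in which Mir6236 took 30.6% of TPM. It was 0.60 (adjusted p = 0.00665) with Mir6236 removed from every library and 0.21 without the libraries that lay apart. In E76K, E76Q, E113K and E113Q the differences from WT were -0.11, -0.02, -0.07 and -0.04, with 95% confidence intervals that together ran from -0.55 to 0.42. No pair of neighbours in the order of Fbln2 levels differed by the limma test, but groups further apart in it did. Fbln2 was called higher in E71Q than in E76K (limma adjusted p = 0.0015), E113K (0.00195), E113Q (0.00422) and E76Q (0.00586). It was also called higher in E71K than in E113K (0.0406) and E76K (0.0438), although their libraries overlapped.

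Fbln1 and Fbln7 were at or near 0 and were not tested, because their means over all libraries were 0.107 and 0.0176 TPM against a minimum of 1 TPM. Fbln1, a basement membrane fibulin and cofactor of the protease ADAMTS1 (Entrez Gene 14114, chromosome 15, 85205949 to 85286535), was listed at 0 in 5 libraries. Its highest value was 0.374 TPM, in E113Q replicate 3, and the 3 E113Q libraries (0.266, 0.267 and 0.374 TPM) were above all WT libraries (0.0795, 0.0334 and 0). With no filter on low values Fbln1 passed the test in E113Q (log2 difference 0.33, limma adjusted p = 0.0021) and E113K (0.20, 0.0336), a change between levels that are all below 1 TPM. Fbln7 (Entrez Gene 70370, chromosome 2, 128862981 to 128897034) was listed at 0 in 16 libraries and never passed 0.162 TPM. The large fibulin Hmcn1, hemicentin-1, was no higher than 0.0228 TPM. TPM keeps no read total, so no limit can be put on these values.

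The makeup of the fibulin RNA differed between groups more plainly than its sum. The summed abundance of the 6 genes was 874 ± 23.8 TPM in WT (SD, n = 3), 934 ± 211 in E71Q, 795 ± 23.6 in E76K, 782 ± 30.7 in E76Q, 736 ± 317 in E71K, 729 ± 15.8 in E113K and 642 ± 102 in E113Q. In WT, Efemp1 made up 39.8% ± 0.337 of it and Fbln2 46.4% ± 0.953, with 11.1% from Efemp2 and 2.71% from Fbln5. In E76K the share of Efemp1 was 22.6% ± 3.65, and in every other mutant it was between 0.0943% and 1.11%. Fbln5 took 26.3% ± 0.393 in E76Q, 24.0% ± 0.489 in E113Q and 23.3% ± 0.531 in E113K, and 10.4% in E76K, 11.4% in E71K and 12.5% in E71Q. Fbln2 made up 81.2% ± 5.997 in E71K and 79.7% ± 2.22 in E71Q. Shares add up to the whole, so a lower Efemp1 share raises the others without any rise in TPM. In E113Q, for example, Fbln2 made up 61.8% at a mean of 398.6 TPM, beside 405.5 TPM in WT. The shares of Efemp1, Fbln2, Fbln5 and Efemp2 are ratios within a library, which the Mir6236 share does not touch. E71K replicate 2, whose total was only 463 TPM as deposited, had 667 TPM with Mir6236 removed, beside 688 TPM in replicate 1 and 1111 TPM in replicate 3.

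**Figure D3:**
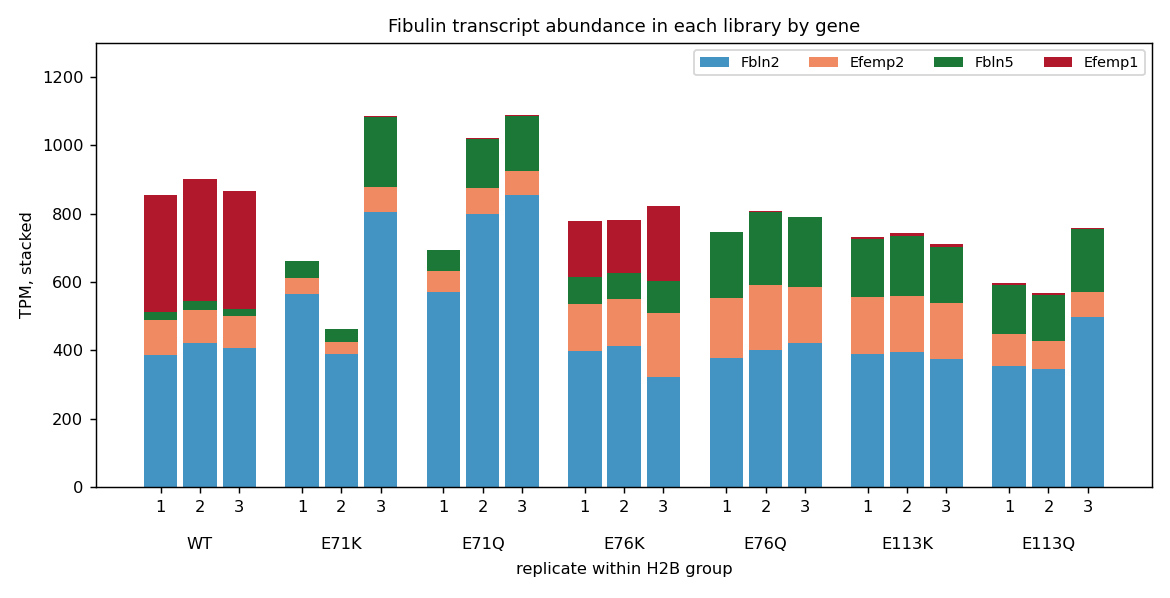
TPM of Fbln2, Efemp2, Fbln5 and Efemp1 stacked for each of the 21 libraries, by replicate within H2B group. The Efemp1 segment is large in WT and E76K and barely visible elsewhere, while the Fbln5 segment is smallest in WT.

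Counted by mutant, 2 to 4 of the 4 tested fibulins passed the limma test, where many of the 12192 genes did too. In E71Q all 4 passed, 2 higher and 2 lower (44.2% of genes were called, 20.7% higher and 23.5% lower). In E71K 3 passed, 1 higher and 2 lower (26.7% of genes, 12.5% higher and 14.2% lower), and 1 did in a fit of only the E71K and WT libraries. In E76K (33.2% of genes, 23.5% higher and 9.67% lower), E76Q (44.3%, 22% higher and 22.4% lower) and E113K (51%, 30.3% higher and 20.7% lower) 3 passed, with Efemp2 and Fbln5 higher and Efemp1 lower in each. In E113Q 2 passed, Fbln5 higher and Efemp1 lower (30.6% of genes, 17.9% higher and 12.7% lower). With single libraries left out, 3 to 4 passed in E71Q (4293 to 6295 genes called) and 2 to 3 in E76K (2828 to 5111 genes). Efemp1 was among the 2.95% of genes called lower in all 6 mutants, and Fbln5 among the 3.65% called higher in all 6. All 6 comparisons share the same 3 WT libraries. A limma F test over the 7 groups passed for all 4 (77.1% of genes), with adjusted p = 3.94e-13 for Efemp1, 6.46e-07 for Efemp2, 0.000125 for Fbln5 and 0.00279 for Fbln2.

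Lysine and glutamine at the same residue were then compared, which asks whether reversing a charge and removing it gave the same levels. At E76, Efemp1 was 6.69 ± 0.29 higher in E76K than in E76Q on the log2 scale (SE; limma adjusted p = 7.83e-12) and Fbln5 was 1.30 ± 0.43 lower (adjusted p = 0.0294), so 2 of the 4 passed (31.9% of genes). The Fbln5 call was lost when E76K replicate 1 or 2 or any E76Q library was left out, with differences of -1.37 to -1.25 over the single libraries left out. The E76K and E76Q libraries of Efemp2 overlapped (difference -0.20, 95% confidence interval -0.59 to 0.19), as did those of Fbln2 (-0.09, -0.53 to 0.35). Efemp2 was called lower in E76K after median-ratio rescaling (-0.35, limma adjusted p = 0.028) and without the libraries that lay apart (-0.34, adjusted p = 0.0103). The fit without those libraries called more of all genes than the 31.9% above, as the last paragraph gives.

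At E113, Efemp2 was 0.98 ± 0.19 higher with lysine than with glutamine (SE; limma adjusted p = 0.000854), the only one of 4 to pass (28% of genes). Its E113K libraries (162.3 to 167.1 TPM) were all above its E113Q libraries (72.2 to 94.997 TPM). Efemp1 was 0.62 higher with a 95% confidence interval of 0.01 to 1.22 (adjusted p = 0.121). Fbln5 (0.16, -0.75 to 1.07) and Fbln2 (-0.03, -0.46 to 0.41) overlapped between E113K and E113Q. Without the libraries that lay apart Fbln5 passed as well (0.30, adjusted p = 0.0433), in a fit that called more of all genes than the 28% above, as the last paragraph gives.

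At E71 none of the 4 passed in all libraries (25.1% of genes were called), and the 2 groups overlapped for each gene. The E71K minus E71Q difference was -0.30 for Efemp1 (95% confidence interval -0.91 to 0.31), -0.45 for Efemp2 (-0.85 to -0.06), -0.38 for Fbln2 (-0.82 to 0.06) and -0.62 for Fbln5 (-1.53 to 0.29), and at an unadjusted p below 0.05 only Efemp2 would be called. This comparison turned on the libraries that lay apart, E71K replicate 3 and E71Q replicate 1. Without the 4 libraries that lay apart all 4 genes passed as lower in E71K, by 0.93, 0.81, 0.82 and 1.80 in the same order (limma adjusted p = 0.000287, 3.43e-05, 0.000146 and 8.93e-08). That fit also called many more of all genes than the 25.1% above, as the last paragraph gives, so the 4 calls do not stand beside that share. Leaving out E71K replicate 3 alone gave 3 calls, where 4713 of all genes were called, beside 3060 in all libraries. For each of the 4 genes E71K replicate 3 was the highest of its group and E71Q replicate 1 the lowest. Leaving both out therefore lowers every difference and narrows the spread, so these calls follow in part from the choice of libraries.

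**Figure D4:**
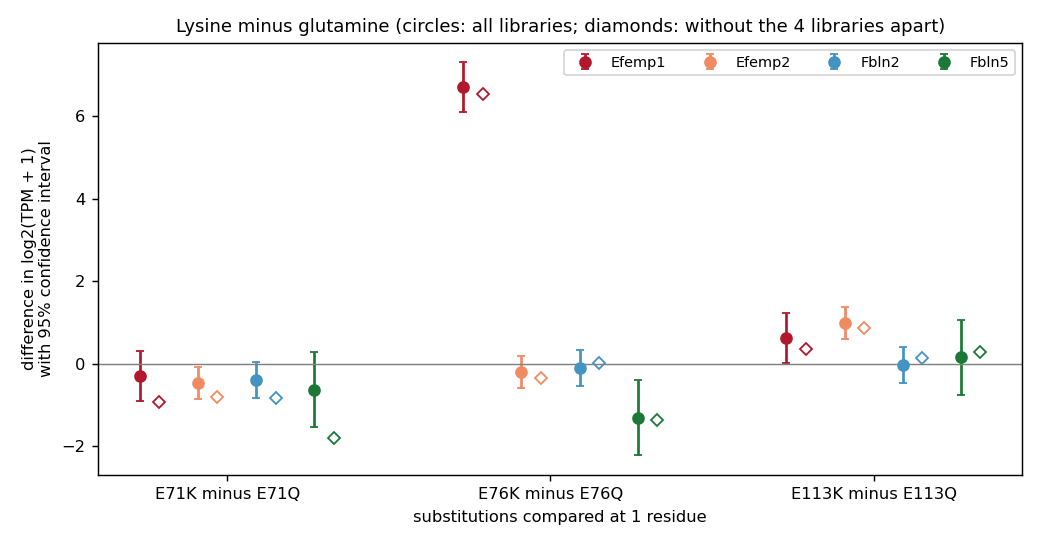
Difference in log2(TPM + 1) between lysine and glutamine at each of the 3 residues, with its 95% confidence interval over all libraries (circles) and its value without the 4 libraries that lay apart (diamonds). Efemp1 stands at 6.69 at E76 and the E71 diamonds all lie below their circles.

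Whether the effect of lysine against glutamine differed between residues was tested as an interaction. For Efemp1 the lysine minus glutamine difference was 6.99 ± 0.41 larger at E76 than at E71 (SE; limma adjusted p = 8.11e-10) and 6.08 ± 0.41 smaller at E113 than at E76 (adjusted p = 6.36e-09). For Efemp2 it was larger at E113 than at E71, by 1.44 ± 0.26 (adjusted p = 0.000553), and than at E76, by 1.18 ± 0.26 (0.00267). That made 1 of 4 tested fibulins for E76 against E71 (21.7% of genes called), 1 for E113 against E71 (32.7%) and 2 for E113 against E76 (29.5%). No interaction passed for Fbln2 or Fbln5 in all libraries. For Fbln5 in E113 against E76 (1.46, limma adjusted p = 0.0837) the call changed in 5 of 30 alternatives. It passed without E71K replicate 2 or 3, which are not in that contrast. Without the libraries that lay apart all 4 members passed for E76 against E71 and for E113 against E71. That fit also called many more of all genes than the shares above, as the last paragraph gives. Dropping libraries because they lay apart narrows the spread.

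Genes whose products work with fibulins moved in mixed directions. The counts below stand beside the shares of all tested genes called higher and lower, which were 12.5% and 14.2% in E71K, 20.7% and 23.5% in E71Q, 23.5% and 9.67% in E76K, 22% and 22.4% in E76Q, 30.3% and 20.7% in E113K, and 17.9% and 12.7% in E113Q. Of 12 tested elastic fibre and microfibril genes (17 on the list), 6 were called higher and 4 lower in E113K, 4 and 3 in E76K, 3 and 2 in E71Q, 2 and 4 in E76Q, 1 and 3 in E71K and 0 and 5 in E113Q, with list medians of -0.31 to 0.77 on the log2 scale beside 0 to 0.16 for all genes. Eln, elastin itself, was at 0.116 ± 0.0775 TPM in WT (SD, n = 3) and reached 8.46, 199 and 270 TPM in E71Q, where it rose by 6.17 ± 0.93 (SE; limma adjusted p = 4.74e-05), lowest in the library that lay apart. In E76Q and E113K, where Fbln5 and Efemp2 were highest, Eln was at 2.28 and 3.61 TPM and did not pass. The microfibril protein gene Mfap5 fell by 2.84 in E113K, and Emilin2, an elastin-associated glycoprotein, fell by 2.14 in E76Q and passed as lower in all 6 mutants.

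Of 12 tested basement membrane and fibronectin genes (13 on the list), 7 were called higher and 2 lower in E113K, 5 and 5 in E76Q, 3 and 5 in E71Q, 3 and 4 in E71K, 3 and 3 in E113Q, and 3 and 2 in E76K. The 3 of 12 called higher in E76K are near the share of all genes. The list median was 0.95 in E113K beside 0.13 for all genes, and -0.31 to 0.17 in the other mutants. Fn1, which encodes fibronectin, and Nid2, nidogen-2, were picked after their values were seen. Fn1 rose in all 6 mutants, by 1.35 to 3.00 on the log2 scale, from 294 ± 4.73 TPM in WT to 2377 ± 317 TPM in E76Q (SD, n = 3). Nid2 rose by 2.92 in E113K. Lama5, a laminin alpha chain, fell from 33.2 ± 1.43 TPM in WT to 0.218 ± 0.0615 TPM in E76K (SD, n = 3). Col18a1, a basement membrane collagen, fell from 58.8 ± 1.82 to 1.49 ± 0.443 TPM in E71Q but was at 47.4 TPM in E76K, the mutant that also kept the most Efemp1. Nid1, the fibulin ligand nidogen-1, fell from 42.7 ± 0.695 to 3.07 ± 0.327 TPM in E76Q and was at 162 TPM in E113K. Vcan, the only one of 4 lecticans tested and a ligand of fibulin-1 and fibulin-2, rose in every mutant, from 19.5 ± 1.36 to 120 ± 8.36 TPM in E113K.

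Of 8 genes for proteases and an inhibitor tied to fibulins, all tested, 7 were called higher and 1 lower in E113K, 5 and 1 in E113Q, 5 and 0 in E76K, 3 and 2 in E71Q, and 2 and 0 in E71K and E76Q. The median log2 fold change was 1.35 in E113K, 1.03 in E113Q and 0.87 in E76K, beside 0.13, 0.06 and 0.16 for all genes, and -0.05 to 0.34 in the others. Adamts1 rose by 3.85 ± 0.31 in E113K (SE; limma adjusted p = 2.7e-08) to 870 ± 48.5 TPM, and the related Adamts5 by 2.78 ± 0.26 to 209 ± 8.16 TPM. Mmp3, stromelysin, rose by 2.55 in E76K. Timp3, named here for its binding of fibulin-3 after its values were seen, passed as higher in 5 mutants, by 0.36 to 1.39, and stood at 0.19 in E113Q without passing. Of 5 tested integrin subunits (7 on the list), 1 to 3 were called higher and 0 to 2 lower in each mutant, and the list median was between -0.11 and 0.56. With 5 genes, 1 called is about the share of all genes. Itgb3, a partner of the alpha V subunit in a receptor for fibulin-5, rose by 3.07 in E71Q. In E76K Itgb5 fell by 0.76 and Itgb1 rose by 0.61.

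In each mutant the fall of Efemp1 was larger than any change of the nearest tested genes in that mutant. In E76K it was -0.96, beside -0.17 to 0.15 for these genes. Genes that averaged under 1 TPM were not considered. The nearest tested genes, matched by symbol, were Pnpt1, Ppp4r3b and Cfap36 at 277.5, 319.7 and 394.2 kb on one side and Gm12070, Vrk2 and Fancl at 2066.6, 2259.2 and 2467.1 kb on the other. Over the 6 mutants their log2 fold changes lay between -0.91 and 0.70, against -7.66 to -0.96 for Efemp1. Of these 6 genes 3 were called lower in E113K, 2 lower in E71Q, 2 lower and 1 higher in E76Q, 1 lower in E113Q and none in E71K or E76K by limma. Around Fbln5, the 6 nearest tested genes ranged from -0.64 to 1.71, and 3 of them were called higher in each of E71Q, E113K and E113Q, 2 in E76K, 2 higher and 1 lower in E76Q and none in E71K. Of all tested genes, 12.5% were called higher and 14.2% lower in E71K, 20.7% and 23.5% in E71Q, and 23.5% and 9.67% in E76K. The shares were 22% and 22.4% in E76Q, 30.3% and 20.7% in E113K, and 17.9% and 12.7% in E113Q. Whether the counts among neighbours differ from these shares was not tested. These neighbours were chosen by position after the values of Efemp1 and Fbln5 were known.

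**Figure D5:**
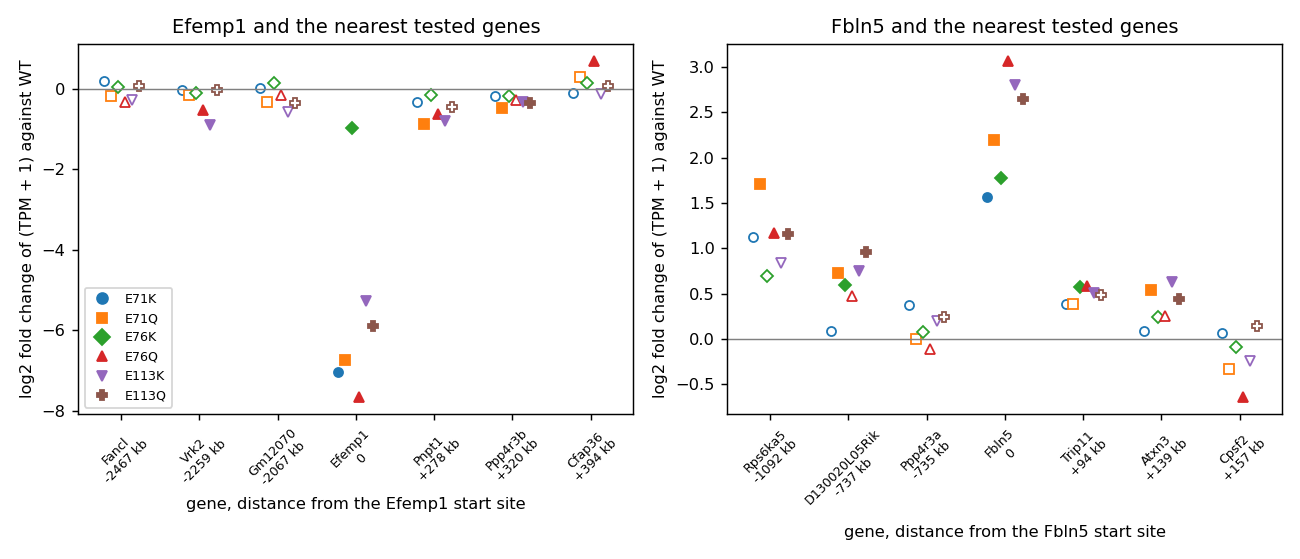
Log2 fold change of (TPM + 1) against WT in each mutant for Efemp1, Fbln5 and the 3 nearest tested genes on each side, ordered by distance from the start site in kb and filled where the adjusted p was below 0.05. Efemp1 lies far below its neighbours in 5 mutants and Fbln5 is above its neighbours in each mutant.

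Genes of like pattern were sought among the 9921 genes that averaged 5 TPM or more, as those with the smallest mean absolute difference in centred log2(TPM + 1) over the 21 libraries. No gene followed Efemp1 closely: the nearest, Sprr2f, differed from it by a mean of 1.17 log2 units, where the mean deviation of Efemp1 from its own mean was 2.47. The next were Cd74 (1.18), Sprr2k (1.18), Tuba4a (1.20), Sprr1a (1.24) and Sprr2a3 (1.25). Cd74, Sprr2k and Tuba4a shared the high level in WT and E76K, as 81.1 and 181, 17.7 and 41.9, and 20.2 and 18.05 TPM. Reads of the near-identical Sprr2 genes could be split between copies, which leaves those values uncertain. For Fbln5 the nearest genes were Arhgap24 (0.27), Tmem86a (0.30) and Igsf3 (0.35), for Efemp2 C1rb, Speg and Cd248 (0.20 to 0.21), and for Fbln2 Rab11fip5, Actn1 and Dusp3 (0.15 to 0.16).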

How the data were processed

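RNA was sequenced from 21 libraries of 7 groups. The authors deposited TPM values for 24091 genes. Salmon, featureCounts 1.4.4, DESeq and build mm10 are named in the submitters' processing notes, without saying which made the TPM, so an effect of counting choices cannot be judged. Each library summed to between 999897 and 999931 TPM, and the depth is unknown. From these values log2(TPM + 1) was computed for the 12192 genes averaging 1 TPM or more, and the 7 groups were fitted together with limma 3.58.1 in R 4.3.3 (moderated, with trend). Benjamini-Hochberg adjustment ran over all tested genes within each comparison, with calls at an adjusted p below 0.05. The procedure was tested on simulated data for E71K against WT, with 200 changed genes among 12192. These 200 genes were divided over the sizes of change. The procedure recovered 47.8% of changes of 1.5-fold, 82.1% of 2-fold and 97.0% of 4-fold, and called 5 unchanged genes. A small change that did not pass can therefore be a missed one. In the data far more genes were called (26.7% in E71K against WT). The adjusted p depends on that share, so recovery in the data can differ from these percentages. Fold changes on this scale understate those of low genes. The members and the gene lists were chosen with earlier results of these data known. From each list the 3 called genes with the largest change against WT were named. A library lay apart where the span of its group exceeded 10 on the first principal component of deviations from group means, made without that group, and it was farthest from its mates. These libraries were picked from the same data. Fits without them have less spread by that choice, so their p-values can be too small and their counts of calls too large. Gene positions come from GENCODE M21 and promoter windows from RefSeq (GRCm38.p6, found for all 6 members). Deviations of same-numbered libraries correlated between -0.17 and 0.42 over 63 pairs. Of these 13 were over 0.1, and the median was -0.0011, beside -0.0013 for different numbers. Since not every pair was over 0.1, the numbers were not used as pairs. Alternatives were other pseudocounts (0.1 and 5), filters, median-ratio rescaling, removal of Mir6236, moderation without trend, a replicate term, fits of only the groups compared, and libraries left out.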

Additional observations from a re-analysis of the deposited data

Results flagged for a closer look

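The lysine minus glutamine difference was not the same at the 3 residues for a pair of fibulins, by the limma interaction test. For Efemp1 it was 6.99 log2 units larger at E76 than at E71 and -6.08 at E113 relative to E76, because E76K kept much of the Efemp1 of WT and E76Q had the least of any group. For Efemp2 it was 1.44 larger at E113 than at E71 and 1.18 larger at E113 than at E76, with E113K above and E113Q at or below WT. These 4 differences passed in every alternative tried.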

How the results depend on the processing

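Over the alternatives, the falls of Efemp1 in E71K, E71Q, E76Q, E113K and E113Q and the rises of Fbln5 in E71Q, E76K, E76Q, E113K and E113Q kept their direction and passed each time, the Efemp1 change in E76Q running from -8.74 to -5.94; the cause of the changes below was not tested. Counts of called fibulins for E71K against E71Q, 0 of 4 as reported, were 4 without the libraries that lay apart, 1 after median-ratio rescaling, 1 when Mir6236 was removed, and 0 to 3 with single libraries left out. For E71K against WT the count was 1 in a fit of only those libraries, against 3. Without the libraries that lay apart it was 2 for E113K against E113Q, 4 for the E76 against E71 interaction and 4 for E113 against E71, where rescaling gave 2 and single libraries left out 1 to 3. With single libraries left out it was 1 to 2 for E76K against E76Q and 2 to 3 for the E113 against E76 interaction. Against WT it was then 3 to 4 for E71K and for E71Q, and 2 to 3 for E76K. The Fbln5 difference in the E76 against E71 interaction turned from -0.68 to 0.43 without the libraries that lay apart (adjusted p = 0.048). Rescaling lowered the median of all genes by 0.15 in E76K and 0.12 in E113K and turned no called fibulin change.

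The replicate block left the number of called fibulins as reported in all 13 comparisons, for example 3 in E71K and 4 in E71Q against WT, and 7 of 21 libraries correlated best with their own number.

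Over all genes, calls for E71K against WT (3250) were 5135 after rescaling, 5208 when Mir6236 was removed, 1442 in a fit of those libraries alone and 4939 without the libraries that lay apart. For E71K against E71Q (3060) these were 5263, 4961, 346 and 6541, and 1815 to 4713 with single libraries left out. Fits of only the groups compared gave 6136 for E76K (4044) and 8276 for E76Q (5403). E76K against E76Q (3890) gave 6054 without the libraries that lay apart, and E113K against E113Q (3408) gave 5486, or 5302 after rescaling. The interactions (2644, 3985 and 3591) gave 5557, 7015 and 6100 without those libraries. Rescaling gave 4341 and 5403 for the first and last of them, and leaving out Mir6236 gave 4065 for the first.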
